A study of Mus musculus with 9 samples.

Results

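The genes described here are the protein-coding genes whose symbol starts with Srsf, Snrp, Hnrnp or Sf3, which encode SR proteins, proteins of the small nuclear ribonucleoproteins (snRNPs), heterogeneous nuclear ribonucleoproteins (hnRNPs) and the subunits of splicing factor 3. They were chosen by symbol and biotype alone, from the rows of a table of gene expression in mouse right ventricular myocardium. Of 54532 genes in the table, 57 carried such a symbol, 5 of these were processed pseudogenes and were left out, and the remaining 52 are 11 Srsf, 12 Snrp, 9 Sf3 and 20 Hnrnp genes. A mean of at least 0.5 FPKM (fragments per kilobase, relative to library size) over the 9 libraries was required for a test, and 51 of the 52 were tested among 13477 genes in all. The exception was Srsf12, with 0 fragments in the 3 CsA libraries, 8 in the VO libraries and 2 in the Sham libraries.

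The study sequenced RNA of right ventricular myocardium, and all mice were wild type, of strain C57BL/6 and labelled postnatal day 7, when the operation was done. The CsA group had fistula surgery and an injection of cyclosporin A, an inhibitor of the phosphatase calcineurin. The VO (volume overload) group had fistula surgery, and the Sham group a sham operation, with 3 libraries in each group. The labels give no dose of cyclosporin A, no vehicle injection in VO or Sham animals and no age at harvest, and they do not say whether the libraries of a group came from different mice, so p-values here measure only a spread between libraries that may be technical.

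The spliceosome removes introns from pre-messenger RNA. Most of its snRNPs combine a small nuclear RNA with a ring of Sm proteins and with proteins of their own. The U2 snRNP carries the SF3A and SF3B complexes that hold the branch point. SR proteins bind exons and recruit the machinery to nearby splice sites, while hnRNPs coat nascent transcripts and often block or redirect splice site choice. Many SR and hnRNP genes tune their own level by splicing their transcripts into forms that are degraded by nonsense-mediated decay, and in the heart the shift of splicing after birth changes the isoforms of contractile genes.

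Promoter windows are shown for Srsf7, Srsf3 and Hnrnpd, which had the highest fold changes among the genes that passed the test in VO apart from Snrpd1 (not shown), and for Srsf4, the gene with a promoter entry whose fold change was lowest. They are RefSeq sequences on build GRCm38.p6, from 250 bases before to 50 bases after the annotated start, written 5′ to 3′ on the gene's strand, with capitals for any match to the searched motifs.
Srsf7, chr17:80207256-80207555, minus strand: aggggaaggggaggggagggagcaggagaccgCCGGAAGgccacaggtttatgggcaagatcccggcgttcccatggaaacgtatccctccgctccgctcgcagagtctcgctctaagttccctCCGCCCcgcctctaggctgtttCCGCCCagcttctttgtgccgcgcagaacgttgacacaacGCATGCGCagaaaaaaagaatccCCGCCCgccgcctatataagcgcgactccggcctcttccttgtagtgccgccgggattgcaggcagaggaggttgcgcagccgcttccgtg
Srsf3, chr17:29032410-29032709, plus strand: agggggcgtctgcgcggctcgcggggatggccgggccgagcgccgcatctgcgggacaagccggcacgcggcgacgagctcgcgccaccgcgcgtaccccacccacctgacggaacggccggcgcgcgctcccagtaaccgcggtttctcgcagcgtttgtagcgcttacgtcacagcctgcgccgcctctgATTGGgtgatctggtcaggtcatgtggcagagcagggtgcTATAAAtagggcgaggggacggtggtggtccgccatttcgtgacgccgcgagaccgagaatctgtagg
Hnrnpd, chr5:99978889-99979188, minus strand: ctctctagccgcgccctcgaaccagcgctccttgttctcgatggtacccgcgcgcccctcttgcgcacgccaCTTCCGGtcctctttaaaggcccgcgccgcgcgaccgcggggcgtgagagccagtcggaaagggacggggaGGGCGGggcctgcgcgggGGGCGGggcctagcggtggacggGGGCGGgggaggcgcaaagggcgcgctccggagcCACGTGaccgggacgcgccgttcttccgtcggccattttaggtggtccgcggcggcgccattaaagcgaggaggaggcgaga
Srsf4, chr4:131873387-131873686, plus strand: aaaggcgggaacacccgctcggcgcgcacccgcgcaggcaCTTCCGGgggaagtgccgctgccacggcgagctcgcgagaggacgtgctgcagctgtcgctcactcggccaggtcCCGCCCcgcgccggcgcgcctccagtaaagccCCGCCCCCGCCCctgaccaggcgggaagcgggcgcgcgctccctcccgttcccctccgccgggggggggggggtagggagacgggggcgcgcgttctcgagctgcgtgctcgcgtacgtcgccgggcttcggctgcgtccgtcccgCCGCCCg
Srsf7 holds an ETS motif, an NRF1 core and SP1 motifs, Srsf3 a CCAAT box and a TATA box, Hnrnpd an ETS motif, SP1 motifs and an E-box, and Srsf4 an ETS motif and SP1 motifs. No match overlapped a match of another motif in these windows. The GC content was 62.7% for Srsf7, 68.3% for Srsf3, 72.3% for Hnrnpd and 77.7% for Srsf4.

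RefSeq promoter entries matched 46 of the 52 genes and 9582 of the tested genes, and both strands were searched. The ETS motif CCGGAAG was present in 34.8% of the 46 promoters and 18.7% of the 9582. The CCAAT box (letters CCAAT) was present in 45.7% against 38.7%, the SP1 motif GGGCGG in 69.6% against 65.5%, and the TATA box TATAAA in 13% against 7.15%. The E-box CACGTG was found in 10.9% against 10.2%, and the cyclic AMP response element TGACGTCA in 4.35% against 3.22%. The NRF1 core GCGCATGC was found in 2.17% against 5.58% and the YY1 motif AAGATGGCG in 2.17% against 3.32%. These are matches of letters and were not tested against a chance level.

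The libraries held 12046288 to 15986747 fragments as recovered from the FPKM steps. VO 3 stood apart, with 11.01% of its fragments from mitochondrially encoded genes against 22.2% to 26.3% in the other 8 libraries, 17003 genes above 0 against 19619 to 20479, and 1304 FPKM of the haemoglobin gene Hbb-bs against 391 to 593. The atrial myosin light chain Myl7 was high in CsA 3 (68.3 FPKM), Sham 1 (235 FPKM) and Sham 3 (270 FPKM) and between 0.959 and 13.2 FPKM elsewhere. The Y-linked gene Ddx3y was above 0 in Sham 2 alone (18.6 FPKM). All 6 ventricular cardiomyocyte markers were expressed, with summed levels of 13340 to 13940 FPKM in CsA, 9311 to 16350 FPKM in VO and 12640 to 16060 FPKM in Sham libraries.

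Volume overload was compared with the sham operation first. Of the 51 tested genes, 10 rose in VO and 0 fell: the SR protein genes Srsf3, Srsf7, Srsf10 and Srsf11, the Sm ring gene Snrpd1, and the hnRNP genes Hnrnpa2b1, Hnrnpd, Hnrnpdl, Hnrnph2 and Hnrnpr. Their log2 fold changes lay between 0.66 and 1.55, on the log2(FPKM + 1) scale that understates changes of low genes, with adjusted p from 0.0382 to 0.0456 (limma, Benjamini-Hochberg over all 13477 genes, threshold 0.05). Of all genes tested, 2.04% were called higher and 2.72% lower. Over the 51 genes the median log2 fold change was 0.53 and 40 were above 0, against a median of 0.00 and 50.4% above 0 over all genes tested. Every VO library was above every Sham library for 28 of the 51 genes (54.9%, against 16.2% of all genes tested), and every VO library was below every Sham library for 3 (5.88%, against 17%), Hnrnpul1, Sf3b2 and Sf3b5.
These calls sit close to the threshold. None of the 10 passed it when transcript GC content was corrected for or when the fit used the VO and Sham libraries alone. None passed when any of VO 1, CsA 1, CsA 3 or the 3 Sham libraries was left out. Over all genes tested, these fits called 0 genes, except 1 without Sham 1 and 69 without Sham 2. Without VO 3, 20 splicing genes (19 higher and 1 lower) passed, against 2032 of all genes tested, 941 of them higher. In bulk tissue a change in the share of a cell type and a change in RNA per cell cannot be told apart.

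**Figure D1:**
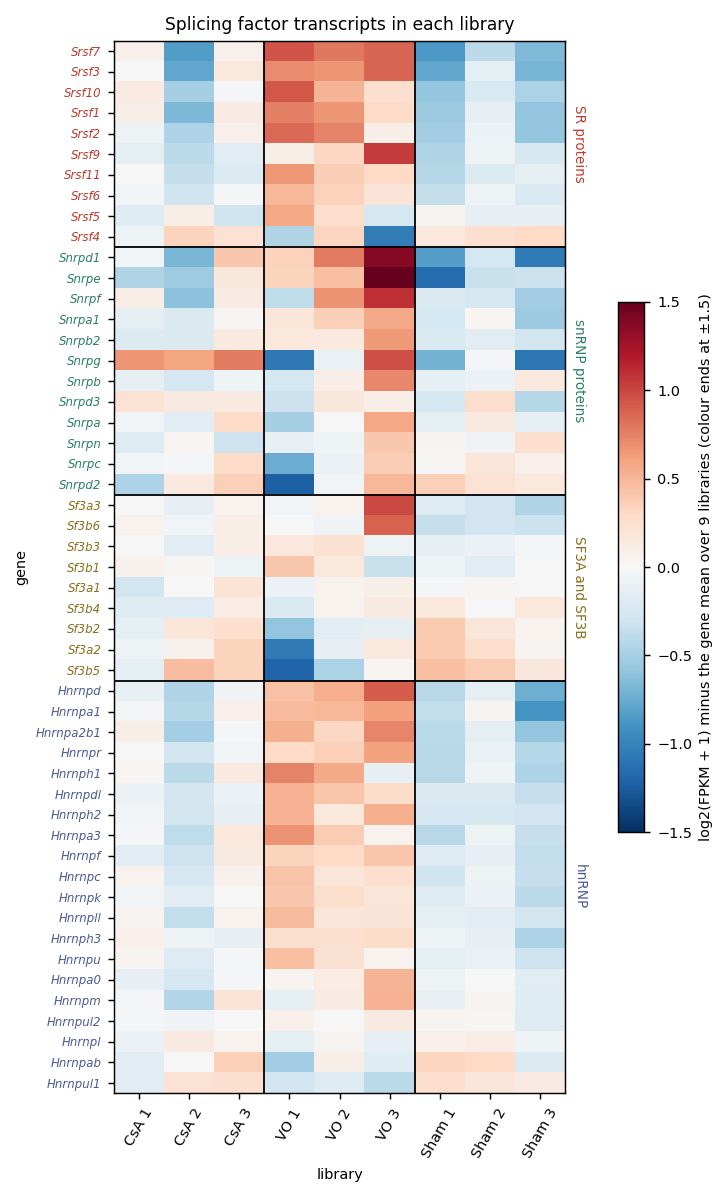
Level of each tested gene in each library, as log2(FPKM + 1) minus the gene's mean over the 9 libraries, with rows grouped by family, columns ordered CsA, VO and Sham, and the colour scale ending at 1.5 in both directions. Most SR and hnRNP rows are above their mean in the 3 VO libraries, whereas the SF3 rows show no common direction.

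The SR proteins had the highest median of the 4 families, with a log2 fold change of 0.85 over the 10 tested genes, 9 above 0 and 4 called. Srsf7 (ENSMUSG00000024097, chromosome 17, 80200089 to 80207305, GRCm38) encodes an SR protein that shuttles between nucleus and cytoplasm and couples splicing to RNA export. It had 54.2, 48.4 and 51.3 FPKM in VO libraries 1 to 3 and 14.7, 20.8 and 17.0 FPKM in Sham libraries 1 to 3. The lowest VO library was therefore above the highest Sham library, and Srsf7 rose by 1.51 on the log2 scale, with an SE of 0.25 (adjusted p = 0.0382).
Srsf3 (ENSMUSG00000071172, chromosome 17, 29032628 to 29043373) encodes the smallest SR protein, which also acts in export of messenger RNA. It had 33.5, 32.4 and 37.9 FPKM in VO and 11.3, 18.2 and 12.1 FPKM in Sham. The groups did not overlap, Sham 2 was the highest Sham library, and the log2 fold change was 1.29 (SE 0.26, adjusted p = 0.0396).
Srsf10 (ENSMUSG00000028676, chromosome 4), whose product acts as a splicing repressor when dephosphorylated, had 27.5, 20.4 and 16.9 FPKM in VO and 9.02, 11.8 and 9.76 FPKM in Sham. The VO values were spread, with VO 3 lowest, yet all 3 were above Sham, and the log2 fold change was 0.99 (SE 0.22, adjusted p = 0.0408). Srsf11 (ENSMUSG00000055436, chromosome 3), which encodes a protein related to the SR family, had 20.9, 17.1 and 16.1 FPKM in VO and 9.33, 11.1 and 11.7 FPKM in Sham, a log2 fold change of 0.70 (SE 0.16, adjusted p = 0.0439).

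The other SR genes did not pass the test. Srsf2, which encodes the most abundant SR transcript here and a protein that binds exonic enhancers, had 81.1, 75.5 and 47.7 FPKM in VO and 30.8, 41.9 and 29.5 FPKM in Sham. VO 3 was well below the other VO libraries but above Sham, and the log2 fold change was 0.96 with an adjusted p of 0.0522. Srsf1, whose product promotes use of 5′ splice sites, came equally close, at 39.2 ± 6.56 FPKM in VO, against 19.4 ± 3.79 FPKM in Sham (SD, n = 3 each; log2 0.98, limma adjusted p = 0.0511).
Srsf6 had a log2 fold change of 0.57 (adjusted p = 0.0599) and Srsf9 one of 0.73 (adjusted p = 0.0829), and the value for Srsf9 was 0.45 without VO 3. Srsf5, at 48.7, 38.8 and 26.7 FPKM in VO and 33.3, 29.6 and 29.4 FPKM in Sham, overlapped between groups (log2 0.26, 95% interval −0.23 to 0.75). Srsf4 (ENSMUSG00000028911, chromosome 4) was the only SR gene below 0, at 2.20, 4.46 and 1.12 FPKM in VO and 3.89, 4.24 and 4.38 FPKM in Sham. VO 2 was above all Sham libraries and VO 1 and VO 3 below them, and the log2 value of −0.63 had an interval of −1.28 to 0.02. It was −0.30 without VO 3 and −0.99 without VO 2, where it passed the test (adjusted p = 0.0395).

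**Figure D2:**
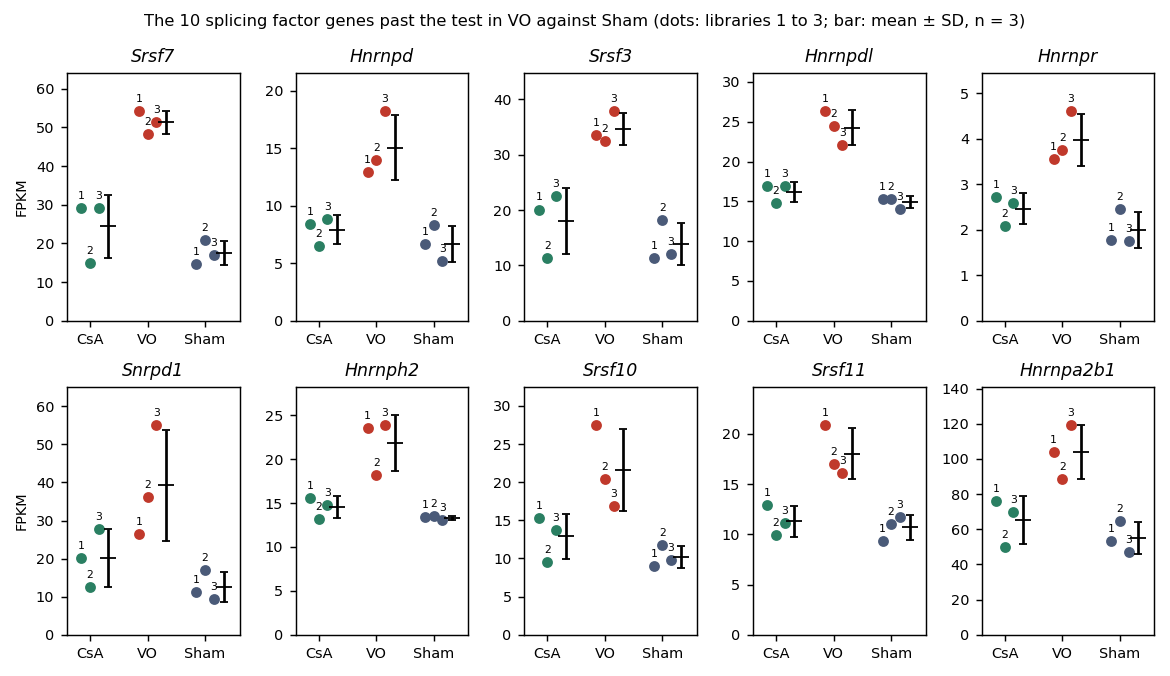
FPKM of the 10 genes that passed the test in VO against Sham, one panel per gene, with a point per library in the CsA, VO and Sham groups and the mean and SD of the 3 libraries of each group. In each panel the lowest VO point is above the highest Sham point, as for Srsf7 (48.4 against 20.8 FPKM).

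The 12 snRNP protein genes had a median log2 fold change of 0.38, with 9 above 0 and 1 called. Snrpd1 (ENSMUSG00000002477, chromosome 18) encodes Sm D1, a subunit of the ring that closes around most spliceosomal small nuclear RNAs. It had 26.5, 36.1 and 55.1 FPKM in VO and 11.2, 17.0 and 9.40 FPKM in Sham, the highest fold change of the 51 genes at log2 1.55 (SE 0.34, adjusted p = 0.0408). The value came to 1.28 without VO 3, the library in which it was highest.
The other ring subunits differed among themselves. Snrpe (Sm E) had 22.2, 24.2 and 65.1 FPKM in VO and 7.29, 13.6 and 13.8 FPKM in Sham, so its log2 value of 1.48 (adjusted p = 0.0586) rested in part on VO 3 and was 0.99 without it. Its value is uncertain, because the near-identical processed pseudogene Snrpert was listed at 22.5, 23.6 and 41.0 FPKM in VO and 10.3, 21.7 and 5.26 FPKM in Sham, and the counting could have split reads between the copies. Snrpf (Sm F) was at 0.80 (adjusted p = 0.163) and at 0.48 without VO 3.
Snrpb, which encodes the Sm B proteins and was the most abundant ring transcript, had 29.5, 38.4 and 59.3 FPKM in VO and 32.2, 33.4 and 39.4 FPKM in Sham. The groups overlapped, and the log2 value of 0.22 changed to −0.05 without VO 3. Snrpd2 (Sm D2) had 3.12, 8.35 and 12.6 FPKM in VO and 11.3, 10.2 and 9.79 FPKM in Sham, a VO spread wider than the difference between the groups (log2 −0.50, 95% interval −1.36 to 0.36). Snrpn, an imprinted gene whose product takes the place of Sm B in neurons, was level between the groups, at 21.7 ± 4.75 FPKM in VO, against 21.5 ± 2.54 FPKM in Sham (SD, n = 3 each; interval of the log2 difference −0.41 to 0.41).
Among the proteins particular to one snRNP, both U2 genes were above Sham in all VO libraries without passing the test. Snrpa1, for U2 A′, had a log2 value of 0.63 (adjusted p = 0.0602), and Snrpb2, for U2 B′′, one of 0.53 (adjusted p = 0.0837). The U1 genes overlapped between groups, with 0.08 for Snrpa (interval −0.49 to 0.64) and −0.25 for Snrpc (interval −0.80 to 0.31).

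The 9 SF3A and SF3B genes had a median log2 fold change of 0.02, with 5 above 0 and 0 called. At an unadjusted p under 0.05, limma gave 4 of the 9, 2 in each direction, against 3949 of all 13477 genes tested, 1890 of them higher. Sf3b1, which encodes the largest SF3B subunit and the one that contacts the branch point, had 32.2, 26.9 and 18.9 FPKM in VO and 22.9, 21.3 and 23.9 FPKM in Sham. VO 3 was below every Sham library and the other VO libraries above them, and the log2 value was 0.16 (interval −0.26 to 0.58).
Sf3b2 had 16.3, 22.2 and 22.6 FPKM in VO and 33.4, 28.6 and 26.1 FPKM in Sham, with no overlap, a log2 value of −0.51 and an adjusted p of 0.105. Sf3b5 (ENSMUSG00000078348, chromosome 10), the gene of a small SF3B subunit, had 1.80, 3.65 and 5.59 FPKM in VO and 7.80, 7.39 and 6.27 FPKM in Sham. It had the lowest value of the 51 genes, −0.88 (adjusted p = 0.0851), and here too no VO library reached the Sham range. Sf3a2 was at −0.58 (adjusted p = 0.204), with VO 1 lowest at 0.732 FPKM, and leaving out 1 library moved it between −0.82 (without VO 3) and −0.22 (without VO 1).
Sf3a3 and Sf3b6 were above Sham in all VO libraries, and both were highest in VO 3. Sf3a3 had 7.44, 7.99 and 16.3 FPKM in VO and 6.60, 6.09 and 5.38 FPKM in Sham, and its log2 value of 0.64 was 0.31 without VO 3. Sf3b6, whose product sits beside the branch point adenosine, had 9.41, 9.05 and 18.2 FPKM in VO and 7.18, 7.51 and 7.33 FPKM in Sham, and its value of 0.60 was 0.29 without that library. Sf3a1 and Sf3b4 were near 0, at 0.02 (interval −0.31 to 0.35) and −0.11 (interval −0.45 to 0.22).

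The 20 hnRNP genes had a median log2 fold change of 0.52, with 17 above 0, 5 called higher and 0 lower. Hnrnpa2b1 (ENSMUSG00000004980, chromosome 6, 51460932 to 51469894), the most abundant of all 52 transcripts, encodes the core hnRNP proteins A2 and B1. It had 104, 88.8 and 119 FPKM in VO and 53.5, 64.95 and 47.1 FPKM in Sham. Each VO library was above each Sham library, at log2 0.90 (SE 0.21, adjusted p = 0.0456).
Hnrnpd and Hnrnpdl lie near each other on chromosome 5, at 99955935 to 99978938 and 100033577 to 100039664, both on the minus strand. Hnrnpd (ENSMUSG00000000568), also called AUF1 and known for binding AU-rich elements of unstable messenger RNAs, had 12.9, 13.96 and 18.3 FPKM in VO and 6.67, 8.30 and 5.16 FPKM in Sham (log2 1.06, SE 0.20, adjusted p = 0.0382). Its paralog Hnrnpdl (ENSMUSG00000029328) had 26.4, 24.4 and 22.0 FPKM in VO and 15.4, 15.3 and 14.03 FPKM in Sham (log2 0.67, SE 0.13, adjusted p = 0.0396). In neither gene did the groups overlap.
Hnrnph2 (ENSMUSG00000045427, X chromosome), an hnRNP that binds G-rich tracts, had 23.5, 18.2 and 23.9 FPKM in VO and 13.4, 13.6 and 13.1 FPKM in Sham (log2 0.66, SE 0.15, adjusted p = 0.0408). Hnrnpr (ENSMUSG00000066037, chromosome 4), which encodes an RNA-binding protein related to Syncrip, had 3.55, 3.76 and 4.61 FPKM in VO and 1.78, 2.46 and 1.75 FPKM in Sham (log2 0.73, SE 0.15, adjusted p = 0.0408). Both were separated between groups in every library.

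A further 9 hnRNP genes were above Sham in every VO library without passing the test. Hnrnpa1, which encodes the splicing silencer hnRNP A1, had 47.3, 48.1 and 52.5 FPKM in VO and 26.0, 34.8 and 17.7 FPKM in Sham, with a log2 value of 0.94 and an adjusted p of 0.0516. Hnrnpf, Hnrnpk, Hnrnpc, Hnrnph3, Hnrnpa3 and Hnrnpll were between 0.47 and 0.64, with adjusted p of 0.0572 to 0.0882, and Hnrnpu, whose product is a nuclear scaffold protein, was at 0.43 (adjusted p = 0.105). Hnrnpa0, among the most abundant of the family, had 58.9 ± 10.8 FPKM in VO, against 47.1 ± 2.68 FPKM in Sham (SD, n = 3 each; log2 0.30, interval −0.07 to 0.68, and 0.16 without VO 3).
Hnrnpul1 was the hnRNP gene with every VO library below Sham, at 6.67, 7.21 and 6.07 FPKM in VO and 10.2, 9.62 and 9.19 FPKM in Sham (log2 −0.48, adjusted p = 0.0732). Hnrnpab was at −0.34 and Hnrnpl at −0.11, both with overlapping groups.

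**Figure D3:**
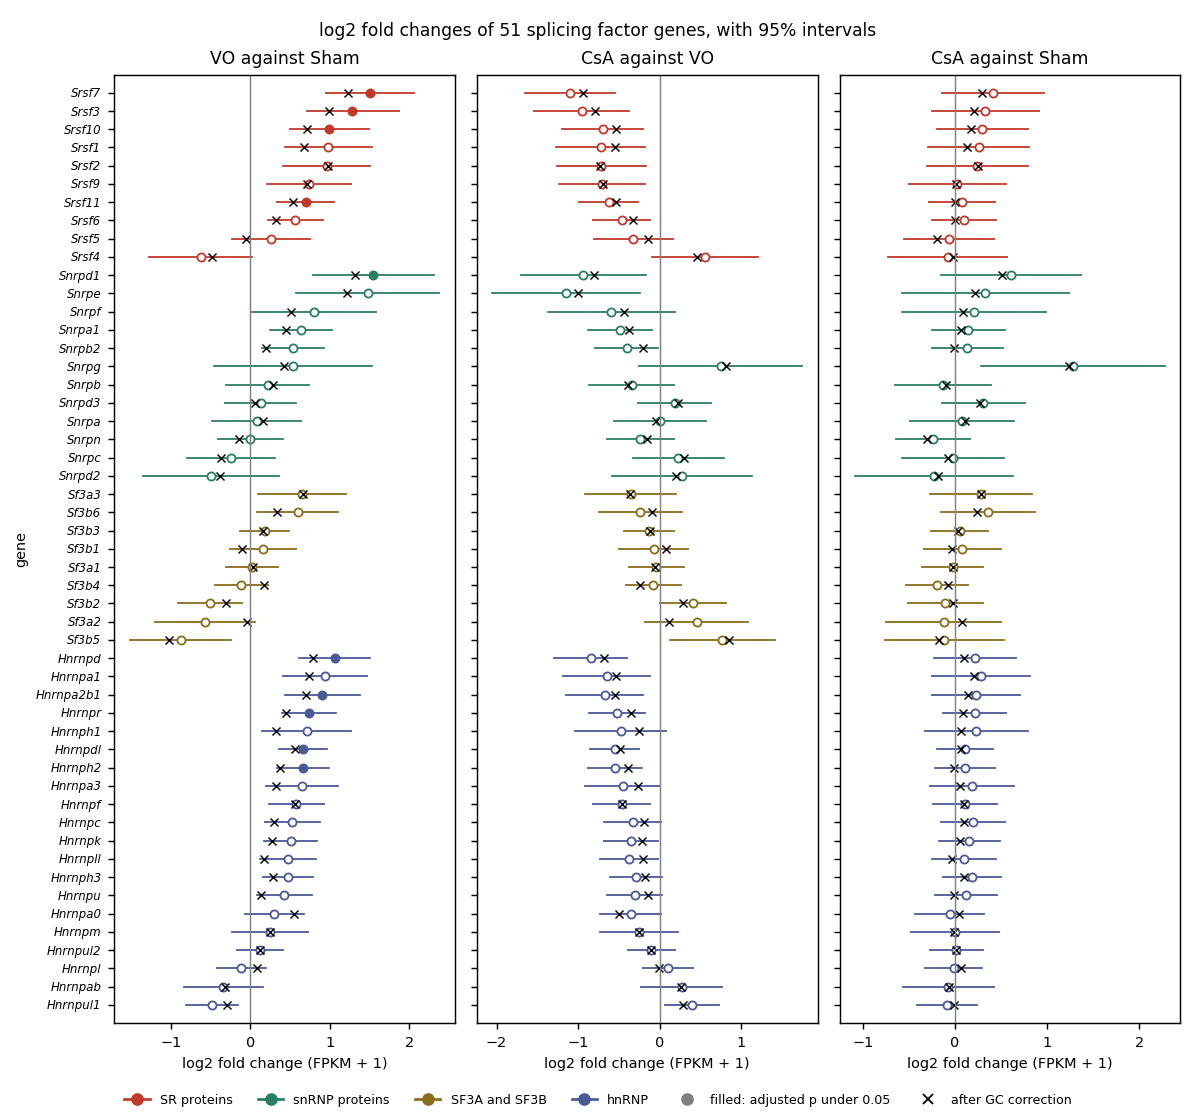
Log2 fold change of each tested gene with its 95% interval in CsA against VO, VO against Sham and CsA against Sham, filled where the adjusted p is under 0.05, with a cross at the value after correction for transcript GC content. The 10 filled points are all in VO against Sham and all above 0, and their crosses lie between 0.37 and 1.32.

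The fold changes followed transcript GC content across all genes in each comparison, and the splicing genes had a lower median GC. Their median transcript GC was 45.04%, against 49.4% over the tested genes that have a value. Spearman's rho between fold change and GC in VO against Sham was −0.62 over the 51 genes and −0.53 over 13465 tested genes, a description across genes that share libraries and are not independent replicates.
All 25 splicing genes under 45% GC were above 0 in VO and 8 of them were called, against 79.4% above 0 and 5.61% called higher among all 3637 tested genes in that range. Of the 16 at 45% to 50%, 12 were above 0 and 2 called, against 59.0% above 0 and 1.47% called higher among all genes there. Of the 10 over 50%, 3 were above 0 and 0 called, against 28.7% and 0.271%. The 10 called genes had 40.9% to 46.4% GC.
After a trend on GC was removed from each library, 0 of the 51 genes and 0 of all genes passed the test in limma, and 22 of the 51 had an unadjusted p under 0.05, 21 of them higher in VO (11.5% of all genes were higher at that level). The 10 called genes stayed above 0 and all became smaller, at 0.37 to 1.32 with adjusted p of 0.0662 to 0.183, the highest being Snrpd1 and Srsf7 (1.23). Hnrnph2 came to 0.37 and Hnrnpr to 0.44, both reduced by more than 1.5 times. The family medians came to 0.70 for SR proteins, 0.31 for hnRNPs, 0.25 for snRNP proteins and 0.04 for SF3, and the median of the 51 to 0.29, against 0.00 for all genes. Srsf2, with 49.97% GC, was at 0.98. Some genes that had not passed the test changed as well: Hnrnpa0 came to 0.55, Sf3b2 to −0.31, Snrpb2 to 0.20 and Sf3a2 to −0.04. Srsf5 (−0.05), Sf3b1 (−0.11), Sf3b4 (0.16) and Hnrnpl (0.08) turned direction.

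**Figure D4:**
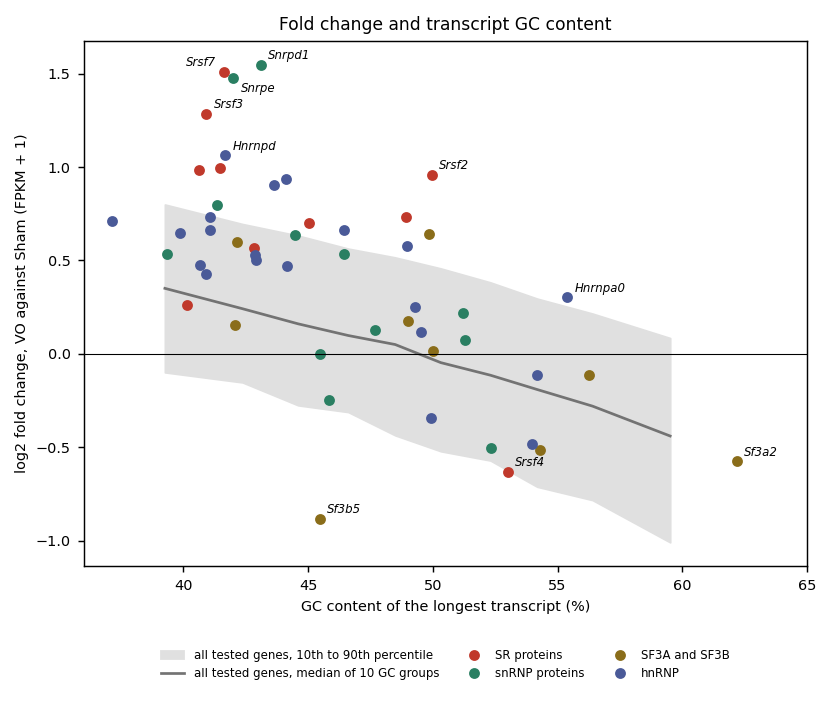
Log2 fold change of VO against Sham against transcript GC content, with a point for each of the 51 tested genes coloured by family, and in grey the median and the 10th to 90th percentile of all tested genes in 10 groups of GC. The grey median declines across the GC range, from 0.35 in the lowest group to −0.44 in the highest, and Srsf7, Srsf3 and Snrpd1 lie above the grey band.

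None of the 5 cycling cell markers (Mki67, Top2a, Ccnb1, Cdk1 and Pcna) was called in VO against Sham, and all 5 were above 0. Their summed level was 48.2, 21.6 and 72.7 FPKM in CsA libraries 1 to 3, 62.3, 92.5 and 55.1 FPKM in VO and 25.6, 43.5 and 20.5 FPKM in Sham. No marker of the 5 was at 0 in every library. CsA 2 had the lowest CsA sum and the lowest CsA value of each tested SR gene except Srsf4 and Srsf5. CsA 3 had a higher sum than VO 1 and VO 3. The SR genes had their highest median deviation from the gene mean in VO 1 (0.68), against 0.44 in VO 2, which had the highest sum. A relation between these sums and the SR genes was not tested.
Other marker lists differed as well. The smooth muscle and pericyte markers had 0 of 4 above 0 in VO against Sham and 1 called. Endothelial markers had 2 of 5 above 0 and 1 called. The macrophage markers had 1 of 4 above 0, the ventricular cardiomyocyte markers 1 of 6 and the atrial markers 0 of 5. On the other side, the fibroblast markers had 3 of 5 above 0 and the erythroid markers 2 of 3, with 0 called in each list. Atrial markers summed to 2.10 to 145 FPKM in CsA, 6.20 to 13.1 FPKM in VO and 2.43 to 586 FPKM in Sham. Without the 3 libraries high in Myl7, which leaves Sham 2 as the only Sham library, the median of the 51 genes was 0.37 and all 10 called genes were above 0. That fit made 0 calls among the 51, which with 1 Sham library says nothing about stability. The part of these cell types or of GC content in the differences was not tested further.

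Cyclosporin A injection was then compared with volume overload alone, the comparison that asks whether the drug moved these genes in operated animals. In limma none of the 51 genes passed the test, as 0% of all genes did, and voom on the recovered fragments gave 0 as well. At an unadjusted p under 0.05 there were 23 of the 51, 21 lower and 2 higher (Hnrnpul1 and Sf3b5), against 2219 of all genes, of which the lower ones were 7.82% of the genes tested. The median log2 difference was −0.35 against 0.00 over all genes, and 39 of the 51 were below 0. These differences too followed transcript GC (rho 0.57 over the 51 genes and 0.40 over all tested genes), and the median was −0.24 after the correction. All CsA libraries were below all VO libraries for 24 genes (47.1%, against 10.3% of all genes tested) and above them for 2, Hnrnpul1 and Sf3b2 (3.92%, against 10.9%). This comparison shares the VO libraries with the one before, so a high VO value enters both with opposite sign.
Srsf7 had 29.2, 15.01 and 29.1 FPKM in CsA against 54.2, 48.4 and 51.3 FPKM in VO. CsA 2 was lowest and no CsA library came near VO (log2 −1.10, 95% interval −1.66 to −0.54, adjusted p = 0.204). Srsf3 had 20.1, 11.4 and 22.6 FPKM in CsA against 33.5, 32.4 and 37.9 FPKM in VO (log2 −0.96, interval −1.54 to −0.38, adjusted p = 0.211). Srsf11, at 13.0, 9.90 and 11.1 FPKM in CsA, was also below VO throughout (−0.63, adjusted p = 0.205), as was Srsf10, at 15.4, 9.58 and 13.8 FPKM (−0.70, adjusted p = 0.220).
The SR family had the lowest median, −0.70, with 8 of its 10 tested genes below VO in every library. The exceptions were Srsf5 (−0.32, interval −0.81 to 0.17) and Srsf4, which was above 0 (0.55, interval −0.10 to 1.2).
Hnrnpd had 8.45, 6.46 and 8.84 FPKM in CsA against 12.9, 13.96 and 18.3 FPKM in VO (log2 −0.84, interval −1.29 to −0.40, adjusted p = 0.204). Hnrnpdl had 16.9, 14.8 and 17.0 FPKM in CsA against 26.4, 24.4 and 22.0 FPKM in VO (−0.55, adjusted p = 0.204), and Hnrnpa2b1 76.0, 50.1 and 70.0 FPKM against 104, 88.8 and 119 FPKM (−0.67, adjusted p = 0.219). In all 3 genes the groups were separate. Hnrnph2 (−0.55, adjusted p = 0.211) and Hnrnpr (−0.52, adjusted p = 0.218) were separate too, and the hnRNP median was −0.37, with 14 of 20 genes below VO in every library.
Among snRNP genes the median was −0.29. Snrpd1 had 20.0, 12.5 and 27.8 FPKM in CsA against 26.5, 36.1 and 55.1 FPKM in VO, and CsA 3 was above VO 1 (log2 −0.94, interval −1.70 to −0.17). Snrpe had the lowest value, −1.15, at 12.5, 11.7 and 19.7 FPKM in CsA, and −0.66 without VO 3. Snrpg, for Sm G, was on the other side, at 6.46, 6.13 and 7.08 FPKM in CsA against 1.24, 3.41 and 8.20 FPKM in VO, a VO range that encloses CsA (log2 0.75, interval −0.25 to 1.75).
The SF3 median was −0.08. Sf3b5 had the highest value of the 51, 0.77 (interval 0.13 to 1.41, adjusted p = 0.251), at 4.89, 7.87 and 7.12 FPKM in CsA against 1.80, 3.65 and 5.59 FPKM in VO, with CsA 1 below VO 3.

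Cyclosporin A with fistula surgery was last compared with the sham operation. None of the 51 genes passed the test in limma, as 0% of all genes did, and voom gave 0. At an unadjusted p under 0.05 there was 1 of the 51, Snrpg, against 200 of all genes (0.594% of the tested genes were higher at that level). The median was 0.11 against 0.00 over all genes, and it came to 0.06 after the correction for GC content (rho with GC −0.57 over the 51 genes and −0.53 over all). Without the 3 libraries high in Myl7, which leaves 2 CsA libraries against Sham 2 alone, the median was −0.10. All CsA libraries were above all Sham libraries for 3 genes, Snrpg, Sf3a3 and Sf3b6 (5.88%, against 4.8% of all genes), and below them for 0 (against 4.94%), shares near those of all genes.
Snrpg (ENSMUSG00000057278, chromosome 6) had 6.46, 6.13 and 7.08 FPKM in CsA against 1.88, 3.66 and 1.23 FPKM in Sham, a log2 difference of 1.28 (interval 0.28 to 2.28, adjusted p = 1). Against Sham 2 alone, the highest Sham library for this gene, with CsA 3 also left out, it was 0.64, and the value is uncertain because the near-identical gene Gm8186 averaged 11.5 FPKM over the 9 libraries. Of the 10 genes that rose in VO, Snrpd1 was at 0.61 (interval −0.15 to 1.37), Srsf7 at 0.41 (interval −0.14 to 0.97) and Srsf3 at 0.33 (interval −0.25 to 0.91) in CsA against Sham. With the libraries high in Myl7 left out, and so against Sham 2 alone, these values were −0.10, 0.01 and −0.25. Snrpd1 and Srsf3 thus turned direction, but Sham 2 was also the only library with the Y-linked Ddx3y above 0 (18.6 FPKM). Hnrnph2 (interval −0.22 to 0.44) and Hnrnpdl (interval −0.19 to 0.41) were both at 0.11. The lowest values were Snrpn at −0.24, Snrpd2 at −0.23 and Sf3b4 at −0.19, with intervals that include 0.

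Other parts of the splicing machinery were read from 11 lists of 120 genes, of which 119 were tested. In VO against Sham 9 were called higher (7.56%, against 2.04% of all genes tested) and 0 lower. None of the 9 passed after GC correction, with only the groups compared, or without VO 1, CsA 1, CsA 3 or Sham 3, where 0 of all genes passed. Of the 119, 76 were above 0 (63.9%, against 50.4%). The median was 0.14, lower than the 0.53 of the 51 genes and closer to that of all genes. The transcript GC content of these lists was not examined. The hnRNP-class protein gene Tardbp, for the RNA-binding protein TDP-43, averaged 26.1 ± 3.18 FPKM in VO, against 12.1 ± 0.884 FPKM in Sham (SD, n = 3 each; log2 1.05, limma adjusted p = 0.0382). Lsm8, a subunit of the ring on U6 small nuclear RNA, averaged 7.18 ± 1.504 FPKM in VO, against 3.04 ± 0.456 FPKM in Sham (log2 1.01, adjusted p = 0.0404). Strap, a partner of the SMN complex that loads Sm rings, averaged 80.5 ± 14.3 FPKM in VO, against 42.8 ± 6.5 FPKM in Sham (log2 0.89, adjusted p = 0.0406).
The remaining 6 were the tri-snRNP factor Prpf38a, the U1-associated protein gene Luc7l3, the SR-related Rsrc1, the AU-rich element binder Elavl1, and the splicing regulators Tial1 and Ptbp2, at log2 0.52 to 0.69. By list, the SR-related proteins had the highest median, 0.42, followed by the LSm ring and the SMN group (both 0.36) and the muscle and heart splicing regulators (0.31). The spliceosomal helicases (−0.09), the proteins that recognise the 3′ splice site (−0.25) and the snRNP proteins named Snrnp (−0.25) were below 0. Snrnp70, the U1 70K protein gene, averaged 3.24 ± 0.972 FPKM in VO, against 5.12 ± 0.468 FPKM in Sham (log2 −0.55, adjusted p = 0.0847). In CsA against VO these 119 genes had a median of −0.11 with 0 called, and in CsA against Sham 0.03 with 0 called.

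Some of the 52 genes have features of annotation that bear on how their values are read. These features were not counted over all tested genes, so the counts do not set the 52 genes apart. An NMD transcript is annotated (GENCODE M21) for 24 of them, for 9 of the 11 SR genes and for 7 of the 10 called genes, and a retained-intron transcript for 38. A gene-level FPKM adds such transcripts to the coding ones, and the deposited values do not separate them. A copy of at least 95% identity over at least 200 bases exists for 21 genes, 5 of the 10 called ones among them, and 10 overlap another gene on their strand and 20 one on the other strand. No source used here says whether the counting was strand-specific.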

How the data were processed

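The authors deposited 1 table of FPKM per gene for 9 libraries of right ventricular myocardium. Libraries were made with a NEBNext Ultra kit from Trizol RNA, per the labels' protocols. Per the submitters' processing notes, which state no roles, the tools were featureCounts 1.5.0-p3, GATK 3.7, HISAT2 2.0.5, DESeq2 1.20.0 and StringTie 1.3.3b, and the builds GRCm38 and mm10. Strand setting and annotation release: not given in the sources used here. The steps between low FPKM values gave back fragment numbers, with 100% of values whole to within 0.1, and totals of 12046288 to 15986747 per library. The library size behind the deposited FPKM differed from these totals. It was 1.04, 1.07 and 1.08 times the total in VO libraries 1 to 3, and 0.956 to 1.03 times in the CsA and Sham libraries. The voom fit used the recovered totals.

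FPKM is not a count, so log2(FPKM + 1) was tested for the 13477 genes averaging 0.5 FPKM or more, with limma 3.58.1 (R 4.3.3, trend on mean level), 3 groups in 1 fit of all 9 libraries, two-sided, with Benjamini-Hochberg adjustment over all genes and a threshold of 0.05. The 95% intervals are limma's and cover the spread between libraries only. Alternatives were other pseudocounts, filters and scalings, robust moderation, only the groups compared, a replicate block, a loess correction (span 0.3, degree 1) for transcript GC content, voom on the recovered fragments and libraries left out. The labels do not say whether the replicate numbers of the titles pair libraries across groups. Same-numbered libraries of different groups had deviations from their group means correlated between −0.40 and 0.24. These values cannot decide the question, because differently numbered libraries were not compared. Transcript GC, overlaps and transcript types came from GENCODE M21 on GRCm38, and near-identical copies from blastn 2.17.0. Scripts ran in Python 3.11.15, and the test was checked on simulated data.

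The genes and lists were chosen with earlier results of these data known. Named genes were those past the test (at most 12 per comparison), the 3 highest and 3 lowest fold changes of each comparison, the 2 most abundant genes of each role and, at most 8, those whose libraries did not overlap in both VO against Sham and CsA against VO; from the other splicing lists, those past the test or the 2 with the smallest p. Further genes named in the text were chosen after their values were seen.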

Additional observations from a re-analysis of the deposited data

How the results depend on the processing

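The number of splicing genes called in VO against Sham, 10 of 51 in limma, was the same with a pseudocount of 0.1 or 0.5, median-of-ratios scaling or robust moderation, 13 with a mean of at least 1 FPKM and 7 after rescaling without mitochondrially encoded genes. It was 18 with voom on recovered fragments. It was 0 with no filter, with only the groups compared, with GC correction, with GC correction and VO 3 left out (an alternative chosen after seeing the data) and without the 3 libraries high in Myl7. With a replicate block it was 0 of the 51 and 1 gene in all, and 0 with the replicate block and GC correction together. Whether the replicate numbers pair the libraries is not known. Leaving out 1 library gave 0 to 20. It was 0 without VO 1, CsA 1, CsA 3 or any Sham library, 8 (7 higher, 1 lower) without VO 2 and 11 without CsA 2. Without VO 3 it was 20 (19 higher, 1 lower), with all 10 among the 20. The calls among all genes tested were 793 without VO 2, 761 without CsA 2 and 2032 without VO 3. They were 0 without VO 1, CsA 1, CsA 3 or Sham 3, 1 without Sham 1 and 69 without Sham 2. With no filter, only the groups compared or GC correction, 0 genes of all were called, and 19 with GC correction and VO 3 left out. Over all genes, 275 of the 642 calls (42.8%) were higher, against 28.2% of 762 after rescaling and 59.9% of 1010 with voom; rescaling moved the median of all genes to −0.05 and voom to 0.08. In CsA against VO and in CsA against Sham the number of splicing genes called was 0 in each alternative run. The causes were not tested. Of the called fold changes of VO against Sham, 0 of 230 alternative values changed sign. Among those of the 51 genes that were named by the stated rule, the sign changed in 39 of 644 values of CsA against Sham. It changed in 17 of 644 of CsA against VO and in 22 of 644 of VO against Sham. The 230 and the 644 include alternatives that leave a fold change as it was. These are other filters, robust moderation, only the groups compared, a replicate block, and a library of the third group left out. So these counts overstate stability, and the 10 called genes were themselves picked by their difference in these data. For these rule-named genes, 136 called values no longer passed, 6 uncalled ones newly passed and 109 moved by more than the spread between libraries. These counts leave out other splicing genes that newly passed, such as Srsf1 in VO against Sham, with voom and without VO 3. Without the libraries high in Myl7 only Sham 2 remains in Sham, so that fit assumes it varies like the other groups. Sham 2 was also the only library with the Y-linked Ddx3y above 0, which in that fit cannot be told apart from the sham operation. Srsf12, with at most 8 fragments in a group, was too low to test.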

Other observations

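Several near-identical copies of splicing genes were listed at over 5 FPKM. Gm7964, a copy of Hnrnpk, had 35.7, 31.04 and 36.04 FPKM in CsA, 47.3, 39.1 and 45.9 FPKM in VO and 28.9, 43.6 and 22.7 FPKM in Sham libraries 1 to 3, with Sham 2 above VO 2. Gm10052, a copy of Hnrnpa1, averaged 9.40 FPKM over the 9 libraries and Gm11847, a copy of Hnrnpa3, 5.23 FPKM. Of the 5 processed pseudogenes that carry the symbols of the families described, Snrpert was the highest, and the other 4 reached at most 0.163 FPKM in any library. It had 27.9, 18.8 and 9.28 FPKM in CsA, 22.5, 23.6 and 41.0 FPKM in VO and 10.3, 21.7 and 5.26 FPKM in Sham. Gm8186, a copy of Snrpg, had 4.34, 3.14 and 12.8 FPKM in CsA, 9.43, 17.1 and 7.21 FPKM in VO and 19.2, 15.5 and 14.8 FPKM in Sham, so that CsA 1 and CsA 2 were lowest for the copy while all 3 CsA libraries were above Sham for Snrpg. How reads were divided between the copies and their parents was not tested.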
